A study of Rattus norvegicus with 6 samples.

Results

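The genes of de novo fatty acid synthesis are described here in the subchondral bone of rats, the bone that lies under the joint cartilage of the knee. The 8 genes were taken by name: Acly, Acaca, Fasn, Elovl6, Scd, Me1, Thrsp and Srebf1. Each had 1 row among the 22050 annotated genes of the deposited table. The series set out to compare rats kept at low and at normal temperature by RNA-seq, from total RNA and a SMARTER mRNA kit. Its 6 libraries carry the titles S12, S10, S20, S13, S23 and S21. The labels give the tissue of each but no temperature, strain, age or treatment, so all 6 were left without a group. No effect of cold was tested, and the values below are those of single libraries. The labels do not say whether the libraries came from separate animals.

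De novo lipogenesis turns carbon from sugar into fat. Citrate exported from mitochondria is cleaved to acetyl-CoA, acetyl-CoA is carboxylated to malonyl-CoA, and fatty acid synthase joins these units into palmitate, using NADPH as the reductant. Palmitate is then lengthened and desaturated before it is stored in triglyceride or built into membranes. Liver and fat tissue are the classical sites of the pathway, and in bone the marrow adipocyte is a cell that stores lipid. The transcription factor SREBP-1c, made from Srebf1, drives most of these genes in liver when insulin is high.

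Sequencing depth was 39990624 to 59200981 counts per library. Library S10 stood apart from the others. Expressed genes are taken here as the 11625 annotated genes whose median reached 1 FPKM (fragment counts adjusted for gene length and sequencing depth). Over them, the median difference of S10 from each gene's own median was -0.31 on the log2(FPKM + 1) scale. That difference was 0.03 in the shortest and -0.66 in the longest of 20 length bins. In S20 and S12 the longest genes were instead high, by 0.50 and 0.42. Adult globins (Hbb with Hba-a1 to Hba-a3) held 10.4% of the counts of S23 and 27.6% of those of S10. Osteoblast markers were present in every library, with a summed level of 1780 to 2486 FPKM over 9 genes. Of 5 hepatocyte markers 2, Alb (albumin) among them, had 0 counts in all libraries. Serpina1 had 52 to 194 counts, Apoa1 3 to 25, and Cyp2e1 8 in S10 alone.

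In level the 8 genes were moderate to low. Acly had the highest median, 20.1 FPKM, above 71.7% of the 11625 genes, followed by Thrsp at 18.1 FPKM and Me1 at 15.2 FPKM. Scd had a median of 9.05 FPKM and Srebf1 one of 5.86 FPKM. Fasn, the central enzyme of the pathway, had a median of only 3.18 FPKM, above 21.7% of genes, and Acaca one of 1.44 FPKM, above 5.68%. Elovl6 had a median of 0.36 FPKM and was the only one of the 8 under 1 FPKM. Summed over the 8 genes, the level was 189 FPKM in S12, 85.6 in S13, 73.3 in S20, 68.0 in S10, 55.5 in S21 and 51.7 in S23. Thrsp alone made up 47.1% of that sum in S12 and 1.71% in S23, so the sum does not stand for the enzymes.

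In spread the genes differed widely. The ratio of the highest to the lowest library was 101 for Thrsp, 11.4 for Scd, 10.3 for Acaca, 5.12 for Fasn, 4.23 for Elovl6, 3.11 for Srebf1, 1.97 for Acly and 1.45 for Me1. On the log2(FPKM + 1) scale, which understates the spread of low genes, the range was at least 1 in 5 of the 8 genes, all of them among the 7 whose median reached 1 FPKM. Such a range was found in 36.6% of the expressed genes. With TMM factors, which rescale whole libraries, it was found in 4 of the 8 and in 29.4% of expressed genes, and with each library's median removed in 20 length bins in 3 of the 8 and in 19.8%. The length step moves genes of low FPKM, Acaca among them, too far. In the deposited values the range of Srebf1 was 1.37, above that of 82.9% of expressed genes. Acly, at 0.93, lay just under the limit of 1. A range of at least 2 was found in Scd (3.13) and Thrsp (5.58), against 4.68% of expressed genes. The range of Thrsp exceeded that of 99.9% of genes and that of Scd 99.1%. The median range was 1.52 over the 8 genes, 1.68 over the 7 whose median reached 1 FPKM, and 0.83 over all expressed genes.

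**Figure D1:**
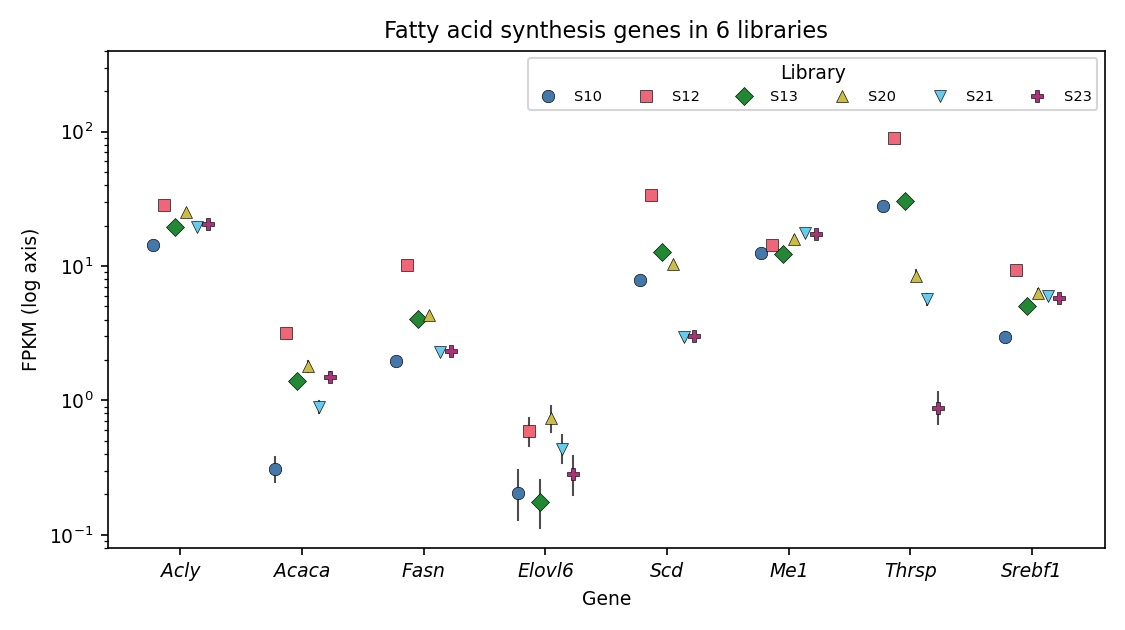
FPKM (log axis) of the 8 genes in each of the 6 libraries. Symbols are single libraries, and vertical lines are exact 95% Poisson intervals of the count, which cover counting error only and are often smaller than the symbol. Thrsp spreads from 0.884 to 89.1 FPKM, while Me1 stays between 12.2 and 17.7 FPKM.

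**Figure D2:**
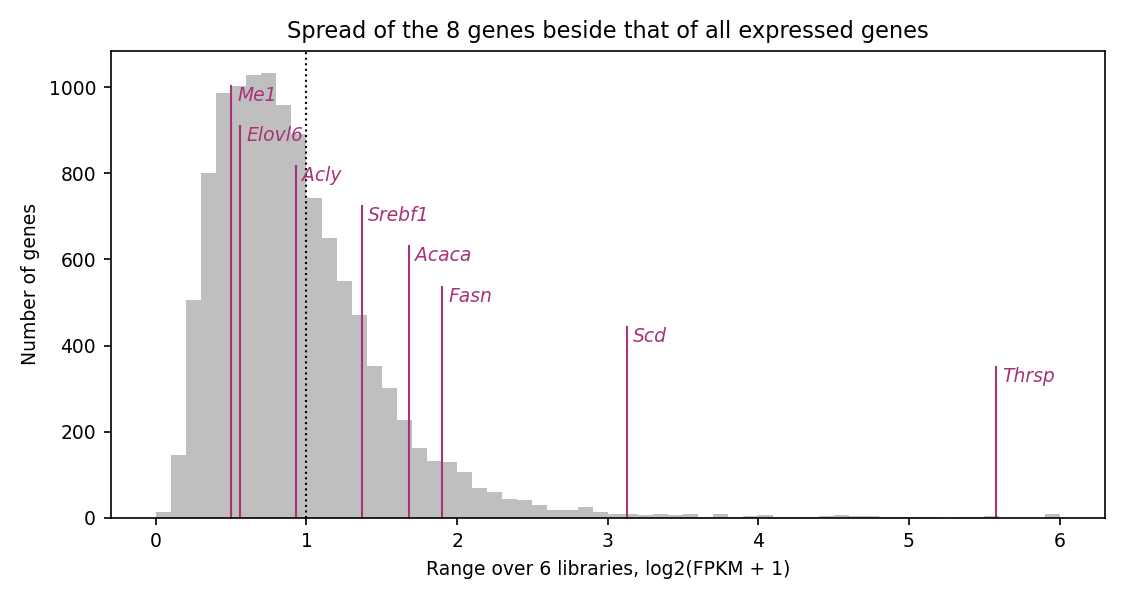
Number of expressed genes (grey bars, 11625 genes) by their range of log2(FPKM + 1) over the 6 libraries, with the ranges of the 8 genes as vertical lines of arbitrary height. The last bar also holds genes beyond its upper edge, the dotted line marks a range of 1, and Thrsp at 5.58 and Scd at 3.13 lie far out in the tail.

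The promoter windows of the genes with the widest and the narrowest spread are shown for comparison. They come from RefSeq (build GRCr8), run from 250 bases before to 50 bases after the annotated start, and are written 5′ to 3′ in the direction of the gene. The build behind the deposited values is not settled, so these coordinates belong to GRCr8 alone. Capitals mark matches, on either strand, to a CCAAT box (CCAAT, bound by NF-Y), a GC box (GGGCGG, bound by Sp1), an E box (CACGTG, bound by USF) or a core of the sterol regulatory element (TCACNCCAC, bound by SREBP). No marked matches overlap.
Thrsp (chr1:161138915-161139214, minus strand): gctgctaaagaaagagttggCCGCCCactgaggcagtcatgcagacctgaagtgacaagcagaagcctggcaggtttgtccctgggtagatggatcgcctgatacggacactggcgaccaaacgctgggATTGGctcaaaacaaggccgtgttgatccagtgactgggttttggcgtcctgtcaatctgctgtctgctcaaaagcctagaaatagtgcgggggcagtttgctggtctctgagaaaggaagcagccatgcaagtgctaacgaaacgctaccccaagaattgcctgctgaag
Scd (chr1:253231682-253231981, minus strand): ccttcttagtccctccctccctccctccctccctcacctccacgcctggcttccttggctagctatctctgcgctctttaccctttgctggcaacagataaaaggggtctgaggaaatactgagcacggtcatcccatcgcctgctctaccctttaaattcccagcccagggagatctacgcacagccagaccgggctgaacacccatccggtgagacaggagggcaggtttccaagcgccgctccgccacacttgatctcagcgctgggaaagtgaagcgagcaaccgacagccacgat
Me1 (chr8:96540195-96540494, minus strand): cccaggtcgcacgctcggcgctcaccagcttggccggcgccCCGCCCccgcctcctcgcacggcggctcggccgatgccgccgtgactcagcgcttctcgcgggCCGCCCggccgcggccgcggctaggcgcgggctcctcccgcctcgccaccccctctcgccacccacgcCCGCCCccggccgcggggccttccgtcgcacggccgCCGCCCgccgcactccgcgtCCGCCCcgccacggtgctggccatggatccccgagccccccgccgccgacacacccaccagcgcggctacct

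The window of Thrsp held 1 CCAAT box and 1 GC box, that of Scd held none of the 4 motifs, and that of Me1 held 5 GC boxes. Of 33469 rat promoter windows of the same length, 37.5% held a CCAAT box, 33.1% a GC box, 6.42% an E box and 1.12% the sterol regulatory core. Windows were matched for 5 of the 8 genes, and neither an E box nor the sterol regulatory core was found in any of them. Those letters not being in this window says nothing about sites elsewhere. The Acly window held a CCAAT box and 3 GC boxes, and the Srebf1 window a CCAAT box and 3 GC boxes. G and C made up 53.7% of the Thrsp window, 58.3% of Scd, 63.7% of Srebf1, 69.0% of Acly and 81.7% of Me1. Acaca, Fasn and Elovl6 were not matched.

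Acly (ENSRNOG00000016924) encodes ATP citrate lyase, which makes the cytosolic acetyl-CoA that the pathway starts from. It had 28.5 FPKM in S12, 25.3 in S20, 20.6 in S23, 19.6 in both S13 and S21, and 14.4 in S10. Its counts of 2691 to 5822 per library make the counting error small. S12 and S20 were high and S10 was low, as they were for long genes at large: the length bin of Acly had a median difference of -0.59 in S10. After length correction the range of Acly was 0.20 instead of 0.93, and with TMM factors it was 0.39. Acly was thus the steadiest of the 8 genes after either step.

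Acaca (ENSRNOG00000034013) encodes acetyl-CoA carboxylase 1, which makes malonyl-CoA and is the regulated step of the pathway. It had 0.310 FPKM in S10, from 88 counts, with an exact 95% Poisson interval of 0.249 to 0.382 FPKM. The other libraries had 3.20 FPKM in S12, 1.80 in S20, 1.49 in S23, 1.40 in S13 and 0.899 in S21. S10 lay below all others by more than counting error, and S12 lay above all others. Acaca sits in the longest length bin, whose median difference in S10 was -0.66. After length correction its range was 0.66 instead of 1.68, its lowest library was S20, and S10 was no longer set apart. That step subtracts the shift of the bin on log2(FPKM + 1), which moves a gene of low FPKM too far. It raised the range of the related Acacb, at low FPKM, from 0.19 to 1.15. Without length correction, the range of Acaca was 3.01 with a pseudocount of 0.1 and 2.77 on CPM outside globins. How much of the S10 value goes with transcript length beyond this correction was not tested. In the reference annotation (GRCr8) Acaca overlaps C10h17orf78, which was not matched by name in the table.

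Fasn (ENSRNOG00000045636) encodes fatty acid synthase, the multifunctional enzyme that builds palmitate. It had 10.1 FPKM in S12, 4.29 in S20, 4.02 in S13, 2.35 in S23, 2.31 in S21 and 1.97 in S10. S12 stood alone, at 2.36 times the next library, S20. S13 and S20 formed a middle pair, and S10, S21 and S23 were low and close together. Fasn shares the longest length bin with Acaca, yet its range stayed at 1.37 after length correction and at 1.65 with TMM factors. Its lowest library changed from S10 to S23 under both. Without S12 the range was 0.83, so the spread of Fasn rests largely on that library.

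Elovl6 (ENSRNOG00000048949) encodes the elongase that lengthens palmitate to stearate. It had 0.735 FPKM in S20, 0.591 in S12, 0.438 in S21, 0.283 in S23, 0.204 in S10 and 0.174 in S13, from 83, 71, 72, 37, 23 and 26 counts. At this depth the intervals of neighbouring libraries overlap: S20 had 0.585 to 0.911 FPKM, S12 0.461 to 0.745 and S21 0.343 to 0.551. S20 and S12 did lie above S10 (0.129 to 0.306) and S13 (0.113 to 0.254) beyond counting error. Elovl6 was highest in S20, not in S12, under the deposited values and under TMM and length correction alike.

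Scd (ENSRNOG00000013552) encodes stearoyl-CoA desaturase, which puts the double bond into stearate and palmitate and so makes oleate and palmitoleate. It had 33.9 FPKM in S12, 12.8 in S13, 10.3 in S20, 7.84 in S10, 3.01 in S23 and 2.99 in S21. S12 was the highest by 2.66 times over S13, and S21 and S23 were the lowest and did not differ beyond counting error (2.79 to 3.19 and 2.79 to 3.25 FPKM). Scd is of about the same implied length as Acly and falls in the same length bin, but length correction left its range at 2.88 and TMM factors at 3.03. Without S12 the range was still 1.79. Related desaturase genes are similar in sequence, and how reads shared between them were counted is not given in the labels and file headers.

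Me1 (ENSRNOG00000009715) encodes cytosolic malic enzyme, a source of NADPH for the synthase. It had 17.7 FPKM in S21, 17.3 in S23, 16 in S20, 14.4 in S12, 12.5 in S10 and 12.2 in S13. S21 and S23, the lowest libraries for Scd, were the highest for Me1. The whole spread was 1.45-fold, and a range as small as 0.50 or smaller was found in 21% of expressed genes. S12 was the lowest library for Me1 with TMM factors and with length correction, and S13 in the deposited values.

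Thrsp (ENSRNOG00000012404) encodes Spot 14, a small protein induced by thyroid hormone and carbohydrate in liver and fat, where it goes with high lipogenesis. It had 89.1 FPKM in S12, 30.4 in S13, 27.8 in S10, 8.50 in S20, 5.67 in S21 and 0.884 in S23. The 57 counts of S23 give an exact 95% Poisson interval of 0.670 to 1.15 FPKM, far below the next library, S21 (5.16 to 6.22 FPKM). The intervals of S10 and S13 overlapped (26.4 to 29.2 and 29.1 to 31.7 FPKM), and every other neighbouring pair was separated by more than counting error. Thrsp is a short transcript, in length bin 5 of 20, where S10 had a median difference of -0.02, and its range of 5.58 became 5.65 after length correction and 5.45 with TMM factors. Without S12 it was 4.06 and without S23 it was 3.76.

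Srebf1 (ENSRNOG00000003463) encodes the lipogenic transcription factor of the pathway. It had 9.28 FPKM in S12, 6.34 in S20, 5.98 in S21, 5.74 in S23, 5.02 in S13 and 2.99 in S10. S12 was high, S10 was low, and the other libraries lay within 5.02 to 6.34 FPKM. The low value of S10 came with a median difference of -0.59 for its length bin, and after length correction the range of Srebf1 was 0.48, with S10 still lowest and S12 still highest. With TMM factors it was 0.88. The neighbour Rai1, which overlaps Srebf1 in GRCr8, was also highest in S12 (3.13 FPKM) and lowest in S10 (0.959 FPKM). Over all expressed genes, 26.6% were highest in S12 and 60.1% lowest in S10. Whether reads were counted by strand is not given in the labels and file headers.

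Libraries were then compared across genes. S12 was the highest library for 6 of the 8 genes, all but Elovl6 and Me1, while 26.6% of the expressed genes were highest there. With TMM factors the count was again 6, and the share of expressed genes was 14.7%. With length correction it was 6 against 14.4%. That count includes Acly, then nearly flat at 4.59 in S12 and 4.54 in S10 (log2), and Acaca, which the step moves too far. S10 was lowest for 4 of the 8 genes, Acly, Acaca, Fasn and Srebf1, and 60.1% of the expressed genes were lowest there too, so that count is no higher than the background. With TMM factors it was 2 of 8, against 32.1%, and S23 was then lowest for 4 of the 8 (Acly, Fasn, Scd and Thrsp), against 20.2% of expressed genes.

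**Figure D3:**
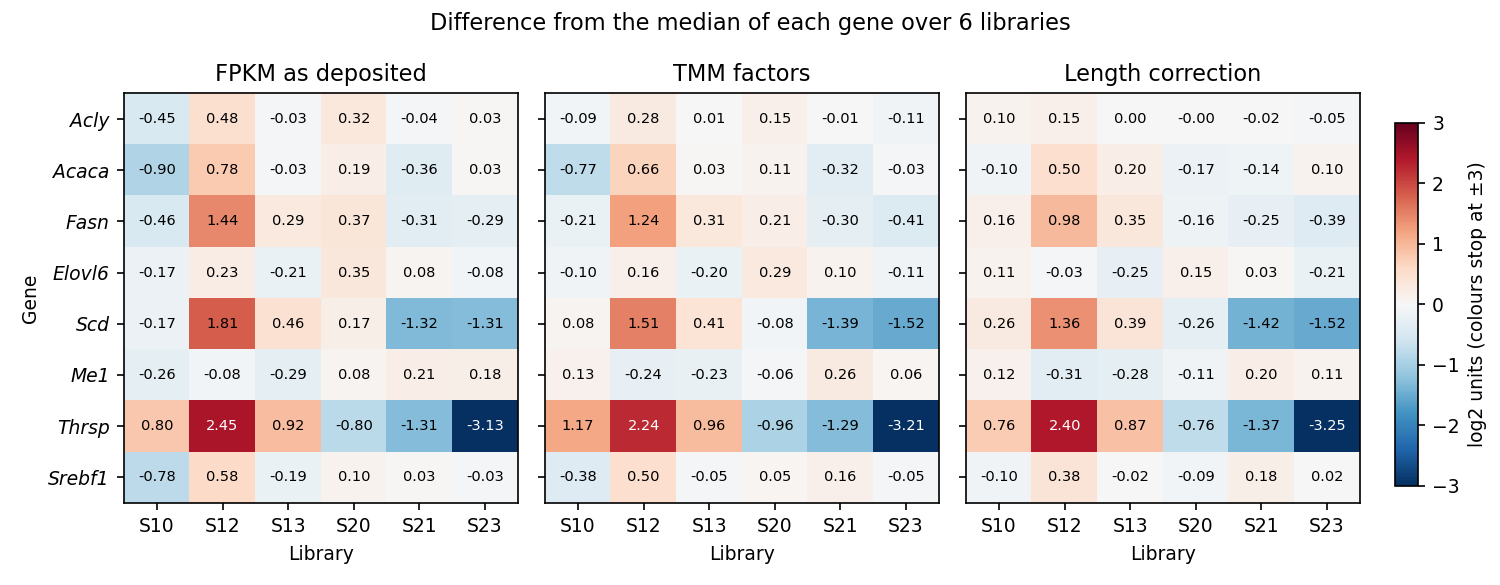
Difference of each library from the gene's median over the 6 libraries, in log2 units, for the FPKM as deposited, with TMM factors and with length correction (rows are genes, columns are libraries, red is above and blue below the median). S12 is red for Fasn, Scd and Thrsp in all panels. The blue S10 column for Acly, Acaca and Srebf1 fades after length correction, which moves Acaca, at low FPKM, too far.

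Ratios between genes within a library need no scaling factor, since a factor for the whole library cancels. For Scd over Fasn, S10 gave 3.97, S12 gave 3.36, S13 gave 3.17, S20 gave 2.39, S21 gave 1.29 and S23 gave 1.28. For Thrsp over Fasn, S10 gave 14.1, S12 gave 8.82, S13 gave 7.55, S21 gave 2.45, S20 gave 1.98 and S23 gave 0.377, a 37.3-fold spread. Both ratios were highest in S10 and lowest in S23, so Thrsp, Scd and Fasn did not keep a fixed proportion. The ratio of Acly to Fasn ran otherwise, with 2.82 in S12 as the lowest and 8.79 in S23 as the highest. Ratios between genes of unlike length carry the length trend of S10: Thrsp is implied to be 1347 bases long and Fasn 9985.

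The profiles of Thrsp and Scd were close to those of some marker genes of fat cells and less close to others. For each of the 8 genes the most similar profiles among the 11625 genes were sought, by the smallest value of the largest difference over the 6 libraries between profiles centred on their medians. For Thrsp the nearest were Adipoq, the fat cell hormone adiponectin, with a largest difference of 0.53 log2 units, Car3, a carbonic anhydrase abundant in fat and slow muscle, with 0.65, and Cytl1 with 1.43. For Scd the nearest was Lpl, lipoprotein lipase, with 0.42, followed by the B cell genes Blk and Ms4a1, each with 0.63. Both closest matches of Thrsp and the closest of Scd are in the adipocyte marker list. The list was chosen with earlier results of these data known, so this overlap is not independent support. Other genes of that list lay farther from Thrsp, with 1.71 for Plin1, the coat protein of the fat droplet, 1.79 for Cidec, which helps droplets to fuse, 1.96 for Lpl and 2.48 for Fabp4, the fatty acid carrier of fat cells. The differences of Scd from those were 0.74, 0.92, 0.42 and 1.08, and 1.33 from Adipoq.

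The ratio of Thrsp to Adipoq was 2.01 in S13, 1.43 in S10, 1.42 in S12, 1.02 in S20, 0.929 in S21 and 0.924 in S23. It spread 2.17-fold, and the ratios of Thrsp to Plin1 and to Car3 spread 3.75-fold and 4.4-fold. The ratio of Scd to Lpl spread 1.79-fold, from 0.665 in S21 to 1.19 in S13. Adipoq and Lpl were picked as the nearest profiles, so narrow ratios to them follow from that choice. The ratio of Scd to Adipoq was 0.405 in S10 and 3.15 in S23, and the ratio of Fasn to Adipoq went from 0.102 in S10 to 2.45 in S23. In S23, where Adipoq had 0.957 FPKM and Plin1 0.136 FPKM, there were still 3.01 FPKM of Scd and 2.35 FPKM of Fasn.

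**Figure D4:**
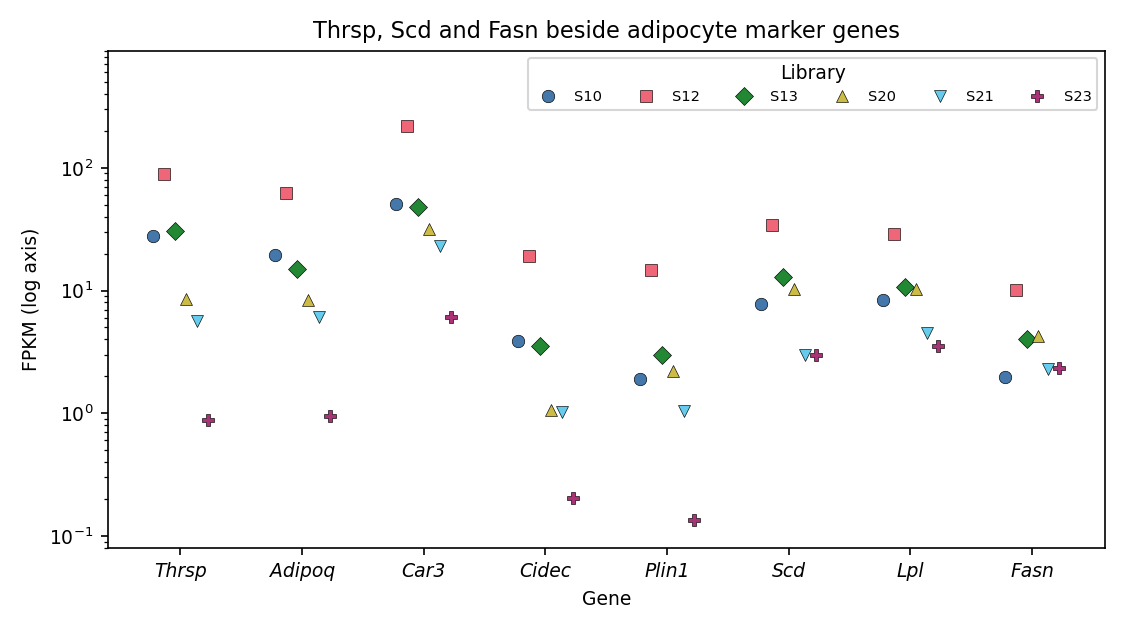
FPKM (log axis) of Thrsp, Scd and Fasn and of the fat cell markers Adipoq, Car3, Cidec, Plin1 and Lpl in the 6 libraries, each symbol being a single library. Thrsp and Adipoq descend in nearly the same steps from S12 to S23, while Fasn spans 1.97 to 10.1 FPKM only.

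The whole adipocyte list had 15 genes with rows, 14 of them expressed. All 14 had a range of at least 1, against 36.6% of expressed genes. Of the 14, 12 were highest in S12, against 26.6% of expressed genes, and 11 lowest in S23, against 8.37%. With TMM factors 11 were lowest in S23, against 20.2% of expressed genes. The exceptions to S12 were Cfd, highest in S10 at 435 FPKM, and Retn, highest in S23 at 148 FPKM. The summed level of the list was 1170 FPKM in S12, 785 in S10, 527 in S13, 452 in S23, 441 in S21 and 367 in S20. Cfd, Fabp4 and Retn held most of that sum, with 207, 76.8 and 148 FPKM in S23. It does not stand for the other genes of the list, such as Adipoq, with 0.957 FPKM in S23. Lep (leptin) reached 71 counts in S12, and neither S21 nor S23 had a count of it. In bulk tissue fewer cells of a type and less RNA per cell cannot be told apart.

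Markers of some other tissues were often highest in S12 as well, where 26.6% of expressed genes were highest. All 6 expressed skeletal muscle markers were highest in S12, and the summed level of 7 muscle genes was 137 FPKM there and 13 to 56.1 FPKM elsewhere. Of 7 B cell markers 5 were highest in S12, and of 8 macrophage markers 6. The summed level of the B cell markers was 753 FPKM in S12 against 369 to 552 FPKM. Most of it was Cd74, with 577 FPKM in S12 and 302 to 396 FPKM elsewhere. Of 5 expressed chondrocyte markers 4 were highest in S12, with a summed level over 6 genes of 219 FPKM against 96.5 to 176 FPKM. With TMM factors these counts were 5 for muscle, 3 for B cells, 4 for macrophages, 3 for chondrocytes and 11 for adipocytes. The share of all expressed genes highest in S12 was then 14.7%. Other lists differed: as deposited, 1 of 9 erythroid markers, 1 of 8 proliferation genes and 0 of 9 neutrophil markers were highest in S12. Of 9 osteoblast markers 4 were highest there, and of 4 endothelial markers 2. The profile of Ckm, the muscle creatine kinase, differed by up to 1.91 log2 units from that of Thrsp, which lies within the 0.53 to 2.48 of the 6 fat cell genes above, and by up to 2.38 from that of Scd. The part of fat, muscle or B cell content in the levels of the 8 genes was not tested.

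The nearest profiles of the remaining genes were not fat cell genes. Those of Fasn were Axl, Pygm and Cpt1a, the last the entry enzyme of fatty acid oxidation in mitochondria, with largest differences of 0.24, 0.25 and 0.31. Those of Acaca were Phkb, Myo1d and Rnf169 (0.11 to 0.16), and those of Acly were Htt, Pidd1 and LOC100910575 (0.04 to 0.06). For Srebf1 they were LOC103689965, Gga3 and Ubald1 (0.12 to 0.14), for Me1 they were Rps6kc1, Wsb1 and Ccnjl (0.10 to 0.11), and for Elovl6 they were Cdkn2c, Dbn1 and Med19 (0.08 to 0.09). Small differences are easily reached by genes with small ranges, so these values are not comparable between members. Profiles were compared on log2(FPKM + 1), which understates fold differences of low genes such as Elovl6 and Acaca. Elovl6 went from 0.174 to 0.735 FPKM, a 4.23-fold spread, while its match Cdkn2c went from 29.6 to 45 FPKM only. No length correction was applied to the profiles, so they carry the length trend of S10.

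Relatives of 4 of the genes gave another picture. Scd2, another stearoyl-CoA desaturase, had 32.9 FPKM in S23, 27 in S20, 25.5 in S12, 25.1 in S21, 21.6 in S13 and 14.6 in S10. The ratio of Scd2 to Scd went from 0.751 in S12 to 10.9 in S23: Scd was the higher of the pair in S12 alone. Scd4 had 0 counts in all 6 libraries. Mid1ip1, the paralog of Thrsp that promotes polymerisation of acetyl-CoA carboxylase, stayed between 59.1 FPKM in S13 and 77.5 FPKM in S21, and exceeded Thrsp in every library but S12. Acacb, the carboxylase of the mitochondrial surface, had 54 to 117 counts and at most 0.271 FPKM, below Acaca in all 6 libraries. Among elongases Elovl5, which acts on polyunsaturated chains, had 15.2 FPKM in S10 and 36.9 to 55.5 FPKM elsewhere, 61 to 236 times the level of Elovl6 per length, and Elovl1 had a median of 92.1 FPKM.

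**Figure D5:**
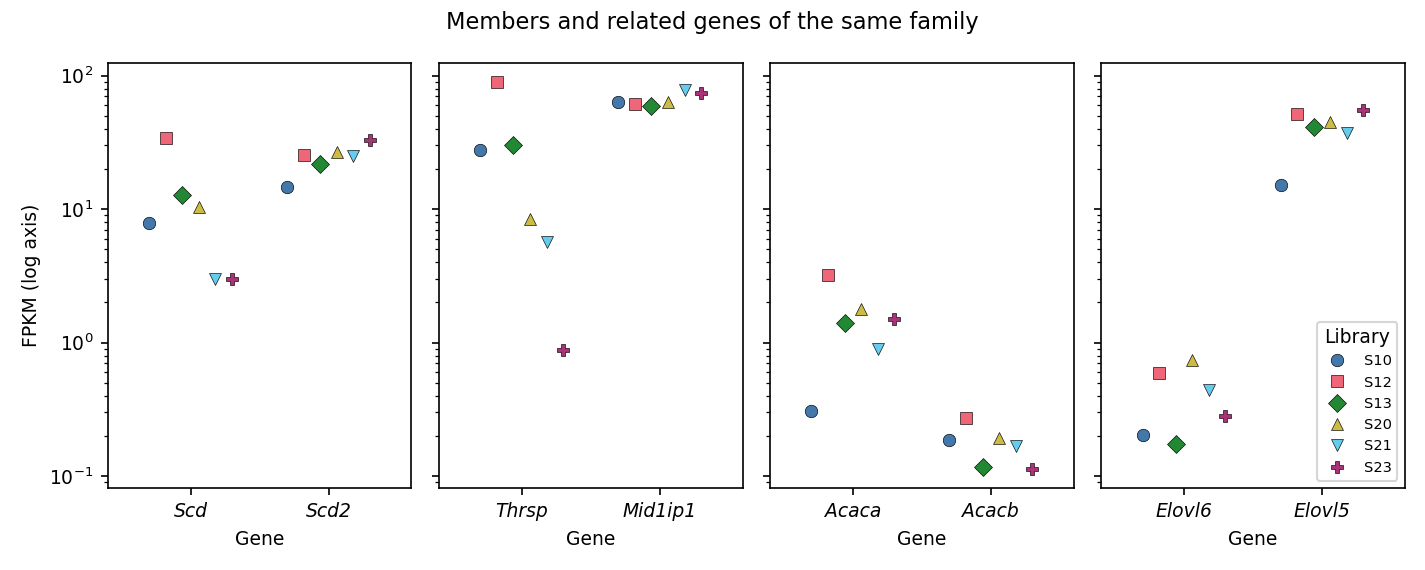
FPKM (log axis) of Scd and Scd2, Thrsp and Mid1ip1, Acaca and Acacb, and Elovl6 and Elovl5 in the 6 libraries, each symbol being a single library. Scd and Thrsp spread widely while Scd2 and Mid1ip1 stay within 14.6 to 32.9 and 59.1 to 77.5 FPKM.

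The other genes of the pathway were counted in 13 lists of 125 genes, of which 121 had a row and 105 were expressed. A range of at least 1 was found in 33 of the 105, or 31.4%, and 29, or 27.6%, were highest in S12. Both shares are near those of all expressed genes, 36.6% and 26.6%. A range of at least 2 was found in 3: Lpl and Fabp4, both also in the adipocyte list, and Rxra, a nuclear receptor (2.14 FPKM in S10 and 13.7 FPKM in S12). Over all expressed genes such a range was found in 4.68%.

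In the acetyl-CoA supply list 4 of 10 genes had a range of at least 1, near the 36.6% of expressed genes. Acss1, a mitochondrial enzyme that makes acetyl-CoA from acetate, had 17.2 FPKM in S20 and 6.44 FPKM in S23, and Aco1, the cytosolic aconitase, had 8 FPKM in S12 and 2.55 FPKM in S10. Slc25a1, the mitochondrial citrate carrier, varied less, with 9.93 to 13.7 FPKM, as did Acss2, the cytosolic relative of Acss1, with 3.13 to 5.31 FPKM. In the NADPH list 6 of 8 genes were highest in S23, where 24.0% of expressed genes were highest, and 5 with TMM factors, against 14.5%. Tkt and Taldo1, of the non-oxidative part of the pentose phosphate pathway, had medians of 394 and 447 FPKM, also with their highest values in S23. All 9 expressed neutrophil markers were highest in S23 too, or 8 with TMM factors, with a summed level of 74909 FPKM there against 17502 to 44453 FPKM elsewhere. Their part in these values was not tested.

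Of 19 expressed regulators of the pathway, 6 had a range of at least 1, near the 36.6% of expressed genes. The widest were Rxra (2.23), Mbtps1, the site-1 protease that cuts SREBP (1.58), and Mlxip, a glucose-sensing factor that had 2.96 FPKM in S12 and 0.4 FPKM in S10. Srebf2, the cholesterol counterpart of Srebf1, went from 9.69 FPKM (S10) to 21 FPKM (S23), and the ratio of Srebf2 to Srebf1 was lowest in S12, at 1.76, and highest in S23, at 3.65. Of 11 expressed targets of SREBP-2, 8 were highest in S23, against 24.0% of expressed genes, and 5 with TMM factors, against 14.5%, while 0 were highest in S12 in either case. Insig1, which retains the SREBP complex in the endoplasmic reticulum, had 13.5 to 20.6 FPKM, and Scap, the escort of SREBP, 4.67 to 9.43 FPKM. The fat cell regulator Pparg had 10.8 FPKM in S12 and 4.72 FPKM in S21. Of 19 such factors 10 were highest in S12, against 26.6% of expressed genes, and 7 with TMM factors, against 14.7%. Mlxipl, the carbohydrate-responsive factor, was not matched by name and was not analysed here.

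The acyl-CoA and glyceride steps held a further contrast. Acsl1, the main acyl-CoA synthetase of fat tissue, was highest in S12 at 60.6 FPKM, with 22.0 to 39.2 FPKM elsewhere, while Acsl5 stayed within 81.1 to 90.9 FPKM. Dgat2, which makes triglyceride, was highest in S23, at 91.0 FPKM, and had 51.7 FPKM in S12. Fads2, the first desaturase of polyunsaturated fatty acids, was highest in S20, at 35.1 FPKM, and had 9.55 FPKM in S10. In the mitochondrial fatty acid synthesis route, which supplies lipoic acid, 0 of 8 genes had a range of at least 1 in the deposited values, against 36.6% of expressed genes. Ndufab1, the acyl carrier protein of that route, passed that limit with TMM factors (1.15) and with length correction (1.13).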

How the data were processed

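RNA-seq of rat subchondral bone was read from 1 deposited table with a count and an FPKM column for each of 6 libraries. Counts are whole numbers per gene, deposited by the authors without normalization. The authors' FPKM columns (named so per the file headers) adjust fragment counts for gene length and depth. The aligner and counter are not stated in the labels or headers. The genome builds GRCm38 and mm10, per the submitters' processing notes, are mouse builds, while row IDs are rat Ensembl IDs.

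Of 30610 rows, 30600 held values, 22050 of them annotated genes. The labels give no groups, so no test was run and replicate error is unknown. Libraries were compared on log2(FPKM + 1), by the range (highest minus lowest), beside the 11625 annotated genes whose median reached 1 FPKM. Intervals are exact 95% Poisson intervals and cover counting error only. Alternatives were a pseudocount of 0.1, TMM factors (edgeR 4.0.16, R 4.3.3), median-ratio factors, a common sum, CPM outside the named globins, removal of each library's median in 20 bins of the length implied by counts and FPKM, other filters, and leaving out each library. TMM moved the median of the expressed genes by 0.35 in S10 and -0.18 in S12 (log2). The length step acts on log2(FPKM + 1), so it moves genes of low FPKM too far in fold terms. The code that computes the range was checked on simulated libraries.

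Besides the 8 genes, the text names up to 4 list genes with the highest medians and 2 with the largest ranges per list, and the 3 nearest profiles of each gene. Acacb, Scd4, Slc25a1, Acss2, Srebf2, Insig1, Scap, Pparg, Lep, Plin1, Cidec, Mlxip and Rai1 fall outside this rule and were chosen after values were seen. The members and lists were chosen with earlier results of these data known.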

Additional observations from a re-analysis of the deposited data

How the results depend on the processing

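The number of genes with a range of at least 1 was 5 as deposited. It was 3 after length correction, and also 3 among those whose median reached 5 FPKM, which 5 of the 8 genes did. It was 3 to 5 when 1 library was left out, lowest without S12. The median range of 1.52 became 0.58 after length correction and lay between 0.86 (without S12) and 1.52 when 1 library was left out, with 0.96 without S10. The length step moves genes of low FPKM, Acaca among them, too far, which bears on the number and the median after it. With a pseudocount of 0.1, a common sum and CPM outside globins the number was 6 and the median range 1.95, 1.71 and 1.78. With TMM factors they were 4 and 1.15. The share of expressed genes with a range of at least 1 was 38.9% on CPM outside globins and 29.4% with TMM factors. That share was not computed with the pseudocount of 0.1, a common sum or a library left out. The number of genes highest in S12 was 6 under each scaling tried and 7 without S20. The share of expressed genes highest in S12 was 24.7% on CPM outside globins and 13.8% with median-ratio factors. It was not computed for a common sum or with a library left out. Of 109 recomputed ranges of single genes, 91 stayed within 1 SD of the gene's values over the libraries. The 18 that did not include Acaca with a pseudocount of 0.1 (3.01) and Elovl6 with the same (1.61), both at low FPKM. Many of the 109 could not move, since a filter leaves the range of a gene as it is. Leaving out a library that is neither a gene's highest nor its lowest cannot change its range either. The tally is therefore not a measure of how firm the ranges are. The share of all genes with a range of at least 1 was 25.8% with no filter on low genes and 34.6% at a median of 5 FPKM. Depth limits Elovl6 most, with 23 to 83 counts. No paired analysis was possible because the labels give no groups and no test was run.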
